A study of Homo sapiens with 10 samples.

Results

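The comparison is between 6 cell lines that grew from soft agar colonies after chromate exposure and the parental BEAS-2B cells, which together account for 7 of the 10 arrays in the series. BEAS-2B is an established, immortalized line of human bronchial epithelial cells. The members were chosen by the array titles alone, 3 lines from small colonies (Cr_small), 3 from large colonies (Cr_large) and 1 array of parental cells. The Cr lines came from cells kept in 0.5 µM potassium chromate for 30 days and then held in soft agar for 3 weeks. The other 3 arrays are control lines, which came from colonies that untreated cells formed in soft agar. By the authors' account, isolated colonies were then expanded as monolayers without chromate, and RNA was taken from the resulting lines. The parental cells were neither exposed nor grown in agar. Each line descends from a single colony, and no repeat of the exposure is described. The treatment text of the labels gives the chromate exposure to every array, the control and parental arrays included, so the groups rest on the titles.

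Anchorage-independent growth, the ability to form colonies in soft agar without attachment to a surface, is a common test of transformation in culture. Hexavalent chromium enters cells as chromate, is reduced inside them and damages DNA. A Cr line differs from its parent by the exposure, by the agar, by having been drawn from 1 cell and by the growth that followed. Only the control lines share the agar, the cloning and the later growth without the exposure. Their values are therefore given beside those of the Cr lines.

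Each array holds 28869 transcript clusters, and levels are log2 intensities, from 4.32 to 14.05 with a median of 5.86. For genes, 18377 clusters with 1 gene symbol were used. A gene or cluster is said to be called when all 6 Cr lines lay at least 2-fold (1.0 on the log2 scale) on the same side of the parental array. The parental cells have 1 array, so no spread is known for them and the calls rest on no test. Limma with the parental array given the spread of the other groups was run only as an alternative. An exact test of 6 lines against 1 could not give a one-sided p under 0.143. Differences between the Cr and control lines were tested with limma over all clusters and do not use the parental array. Lower RNA per cell and fewer cells that make an RNA cannot be told apart in these bulk samples. KRT8, a simple epithelial keratin, had a level of 12.05 on the parental array and 12.45 ± 0.16 (SD, n = 6) in the Cr lines. Its partner KRT18 had 11.53 and 12.16 ± 0.14 (SD, n = 6). Of 17 bronchial and basal epithelial markers 6 were above 7 in the parental cells (KRT7, KRT8, KRT18, KRT19, ITGA6 and ITGB4), and the median of the list was 6.25. CDH1 at 4.91, EPCAM at 5.28 and KRT5 at 5.48 were among those near background, so the bronchial label was only in part borne out by its markers. Of 12 fibroblast markers 3 were above 7 in the parental cells (COL1A1, PDGFRB and THY1) and 5 on at least 1 array. Of 11 leukocyte markers CD68 alone was above 7, and PTPRC, the pan-leukocyte marker, was at 4.61. Of 10 endothelial and 10 alveolar markers none was above 7 on any array. What part cells of another type have in the results was not tested.

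The Cr lines lay farther from the parental cells than the control lines did. In a Cr line 462 to 796 clusters were at least 2-fold away from the parental array, and in a control line 348 to 440. The mean was 664 ± 112 (SD, n = 6) against 384 ± 49.4 (SD, n = 3). The exact two-sided permutation test over 84 splits gave p = 0.0238, the smallest it can give. Its units are lines, all measured from the same parental array, and not exposures. Cr_large 1 had 334 clusters above and 462 below the parental array, the most of any line, and Cr_large 3 had 173 above and 289 below. Each Cr line had more clusters below than above the parental array, whereas each control line had more above than below. The Euclidean distance over all clusters was 61.4 ± 3.68 (SD, n = 6) for the Cr lines and 50.6 ± 2.38 (SD, n = 3) for the control lines (exact two-sided permutation p = 0.0238, and 0.0238 after Benjamini-Hochberg over the 2 measures). Cr_large 3, at 54.3, was the nearest of the Cr lines and the other 5 lay between 61.9 and 64.9.

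**Figure D1:**
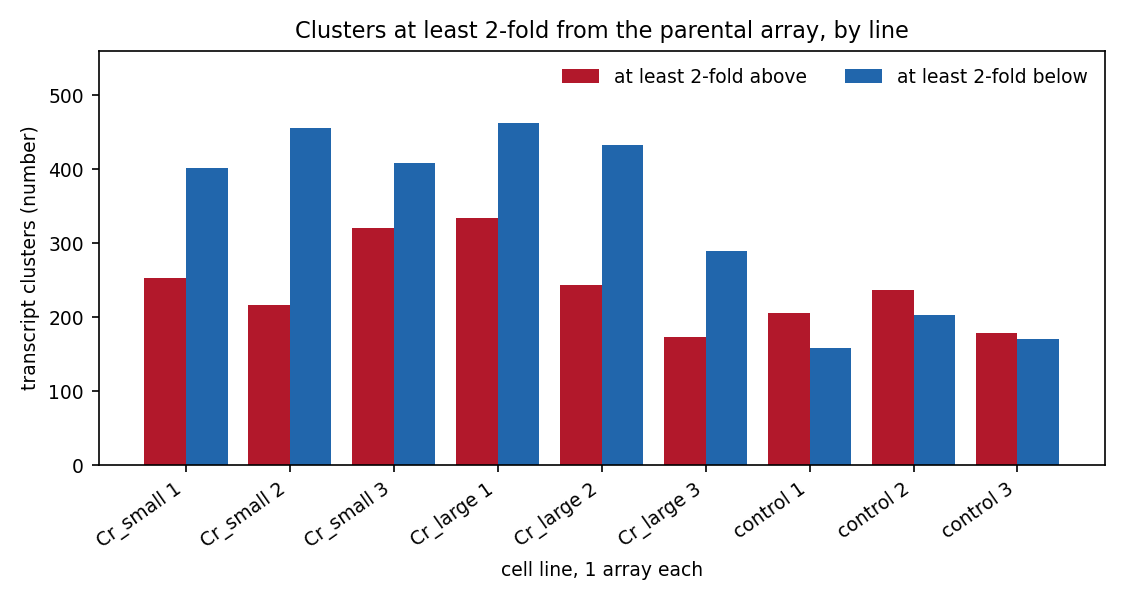
Number of transcript clusters at least 2-fold above (red) and below (blue) the parental array in each of the 6 Cr and 3 control lines, 1 array per line. The bars for clusters below reach 289 to 462 in the Cr lines and 158 to 203 in the control lines.

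All 6 Cr lines together were past 2-fold on the same side in 63 clusters above (0.218% of 28869) and 153 below (0.53%). By gene these were 57 above (0.31% of 18377) and 124 below (0.675%). The median fold of the called genes was 3.12 above and 3.20 below. Among the genes called below, 51 had a mean under 6 in the Cr lines, close to the background of the arrays, and the constant that the authors' algorithm adds makes such folds smaller. The SD over the 6 Cr lines had a median of 0.22 among the called genes on either side, and of 0.10 among all clusters. The count above rested in part on Cr_large 3, without which 95 clusters were above and 182 below. With a control line as the reference in place of the parental array, the same rule called 67 above (0.232%) and 154 below (0.533%) for control 1, 71 (0.246%) and 216 (0.748%) for control 2, and 74 (0.256%) and 134 (0.464%) for control 3. Of the 63 clusters above the parental array, 47 were also higher in the Cr lines than in the control lines (limma, adjusted p under 0.05), and of the 153 below 112 were also lower. Over all clusters that test called 1538 higher (5.33%) and 1652 lower (5.72%), and 1163 higher and 1912 lower when each array was centred on its median. Without control 1 it called 834 higher and 993 lower, and without control 3 it called 734 and 995.

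Several genes were high in all 6 Cr lines while the 3 control lines lay less than 2-fold from the parental level. The genes of this and the similar sets that follow were grouped by where the Cr and control lines lay. The limma p-values between those lines are therefore a description. PSG2, a secreted pregnancy-specific glycoprotein made mainly by the placenta, was at 4.77 in the parental cells and at 4.77, 4.95 and 4.68 in the control lines, and its Cr lines had a lowest level of 6.47, a median of 7.95 and a highest of 8.94. It was 9.20-fold above the parental array, and the nearest line, Cr_small 1, was 3.23-fold above. The groups did not overlap (Cr against control lines, limma adjusted p = 0.00529). KRT34, a hair keratin, was at 5.63 in the parental cells, at 5.83, 6.28 and 6.04 in the control lines and at 7.19, 8.17 and 10.01 as the lowest, median and highest Cr line. All 3 control lines of KRT34 were above the parental level, by 0.43 on average on the log2 scale. Its Cr mean was 6.06-fold above the parental array, with Cr_large 1 highest and Cr_large 3 lowest (limma adjusted p = 0.0365 against the control lines).

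CHST2, a sulfotransferase that modifies carbohydrate chains, was 4.30-fold above the parental level of 7.01, with Cr lines from 8.62 to 9.87 and control lines from 6.64 to 7.09. UGT8, which makes galactosylceramide, was 4.18-fold above 5.27, with Cr lines from 6.82 to 7.86. Its control lines were at 5.37, 5.48 and 5.34. KCNQ5, a potassium channel subunit, was 3.86-fold above 5.38, and CNKSR2, a scaffold of Ras signaling, was 3.15-fold above 5.43. CASP4, an inflammatory caspase that responds to bacterial lipopolysaccharide in the cytosol, was at 8.38 in the parental cells, at 8.33, 8.67 and 8.20 in the control lines and at 9.74 to 10.21 in the Cr lines, 2.96-fold above. AK4, a mitochondrial adenylate kinase, was 2.61-fold above 8.56. It has several clusters, and averaging them moved its difference by more than the SD over the Cr lines. All 6 genes were higher in the Cr than in the control lines, with limma adjusted p from 0.000156 for UGT8 to 0.00255 for KCNQ5. Their place in this set was decided by the same levels, so these p-values are not separate support.

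In another set the Cr lines lay above and the control lines below the parental cells. CHRDL1, a secreted antagonist of bone morphogenetic proteins, was at 6.45 in the parental cells, at 5.14, 5.46 and 4.94 in the control lines and at 8.88, 9.01 and 9.75 as the lowest, median and highest Cr line. The Cr mean was 6.59-fold above the parental array, and the difference from the control lines was 3.99 on the log2 scale (standard error 0.18, limma adjusted p = 2.35e-05). STK26, a serine/threonine kinase, was 3.85-fold above its parental level of 6.61, with control lines at 5.97, 5.58 and 5.52. LYPD6B, a Ly6 family protein, was 3.45-fold above 6.65, with control lines at 5.87, 5.75 and 5.72. ELOVL7, a fatty acid elongase, was 2.74-fold above 7.46 and NOX4, an oxidase that makes hydrogen peroxide, was 2.55-fold above 5.55. For NOX4 the parental level lay between 4.68 to 4.77 in the control lines and 6.58 to 7.10 in the Cr lines. ZNF711, a zinc finger transcription factor, was 3.42-fold above 5.28. In these genes all control lines lay below the parental level and all Cr lines above it.

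Among the genes called below were EYA4, EYA1 and EYA2, whose control lines lay near the parental level. EYA proteins are transcriptional coactivators with phosphatase activity that act in organ development. EYA4 was at 8.40 in the parental cells and at 8.48, 8.38 and 8.56 in the control lines, and the Cr lines were at 4.74, 4.80 and 4.90 (lowest, median, highest). The Cr mean was 12.0-fold below the parental array, and all 6 lines were near the background of the arrays. EYA1 was at 7.13 in the parental cells, at 6.79, 7.25 and 7.10 in the control lines and at 4.99 to 5.26 in the Cr lines, 3.95-fold below. EYA2 was at 7.34 in the parental cells, at 7.56, 7.20 and 7.85 in the control lines and at 5.40 to 5.84 in the Cr lines, 3.18-fold below. All 3 were lower than in the control lines (limma adjusted p from 4.37e-08 for EYA4 to 0.000567 for EYA2). They too were grouped by these levels, so the p-values are a description. EYA3, the remaining member of the family, was not called, with Cr lines from 7.38 to 8.13 and a mean 0.29 above the parental array on the log2 scale.

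NPR3, the receptor that clears natriuretic peptides, was at 9.38 in the parental cells, at 9.56, 9.74 and 8.90 in the control lines and at 5.47, 5.61 and 6.17 as the lowest, median and highest Cr line. It was 12.6-fold below the parental array. CRYBG1, a crystallin-domain protein, was 6.40-fold below 8.40, with Cr lines from 5.23 to 6.08 and control lines from 8.03 to 8.73. SEMA3A, a secreted guidance cue that repels growth cones, was at 8.19 in the parental cells, at 7.63, 7.65 and 7.22 in the control lines and at 5.09 to 5.97 in the Cr lines, 6.59-fold below. ADGRL2, an adhesion G protein-coupled receptor, was 5.42-fold below 9.76, and its Cr lines spread from 6.29 in Cr_large 2 to 8.32 in Cr_small 3. ARRDC3, an arrestin-domain adaptor that sends membrane proteins for degradation, was 4.53-fold below 9.11, with Cr lines from 6.47 to 7.41 and control lines at 8.95, 9.45 and 9.17. ALDH1A3, which makes retinoic acid, was 4.23-fold below 8.49. It has 2 clusters, and the mean of both gave a difference of -0.90 in place of -2.08 on the log2 scale. CDK14, a cyclin-dependent kinase, was 3.63-fold below 8.69, MEIS1, a homeobox factor, 3.34-fold below 8.29, and MMP2, a gelatinase that degrades basement membrane, 2.99-fold below 7.26. Each of these genes was lower in the Cr than in the control lines, with limma adjusted p from 7.59e-05 for CDK14 to 0.00149 for ARRDC3. This set was grouped in the same way, and its p-values are likewise a description.

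**Figure D2:**
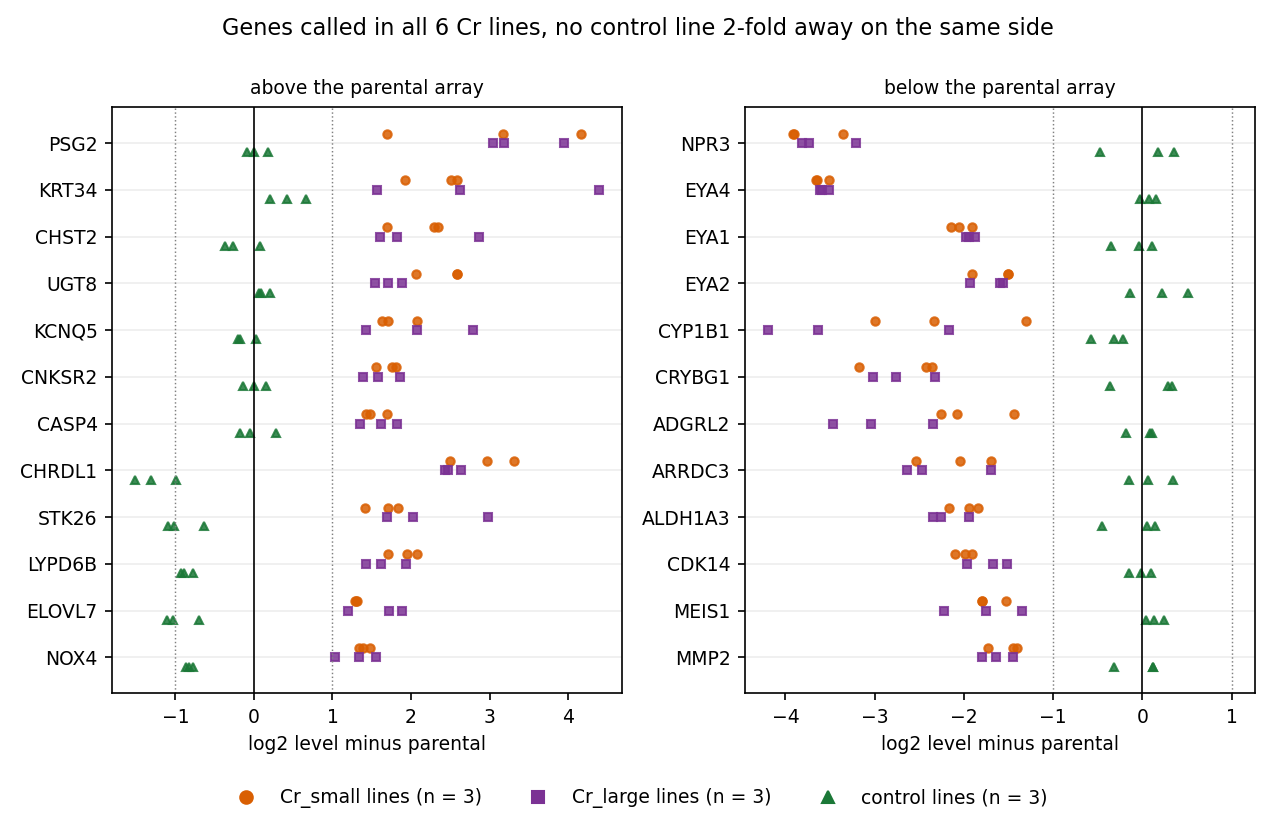
Log2 level minus that of the parental array for 24 called genes, 1 point per line (circles Cr_small, squares Cr_large, triangles control), with dotted lines at 2-fold. The Cr lines of PSG2 and CYP1B1 spread by SDs of 0.87 and 1.05, and those of EYA4 and EYA1 lie near the background of the arrays.

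CYP1B1, an enzyme that oxidizes xenobiotics and estrogens, had the largest SD over the Cr lines of all called genes. It was at 10.67 in the parental cells, at 10.35, 10.09 and 10.45 in the control lines and at 8.34, 7.67 and 9.36 in Cr_small 1 to 3 and 6.48, 7.03 and 8.51 in Cr_large 1 to 3. The fold below the parental array ran from 2.48 in Cr_small 3 to 18.3 in Cr_large 1. CD24, a surface glycoprotein, had the largest mean fold of all called genes, 24.5-fold below its parental level of 10.55. Its Cr lines were at 4.93, 5.81 and 6.88 (lowest, median, highest) and its control lines at 9.16, 9.13 and 9.70. CD24 is placed on chromosome 6 here by its symbol, and the position of the cluster itself was not looked up. In the paper's list the cluster number given for CD24 follows those of the Y genes. Of 23 genes of the Y chromosome 8 were called below as well, where 0.675% of all genes were. The CD24 value may therefore be that of related sequence on the Y chromosome, which was not tested. ANXA3, a calcium-dependent phospholipid-binding protein, was 5.13-fold below 9.74 and ranged from 6.37 in Cr_small 2 to 7.98 in Cr_large 3. No cluster passed limma between the Cr_large and Cr_small lines at an adjusted p under 0.05, and 1266 clusters (4.39%) had an unadjusted limma p under 0.05.

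Other called genes lay on the same side of the parental array in the control lines. Both sets of lines are measured from the same parental array, so an error in that array would appear in both. ANGPTL4, a secreted inhibitor of lipoprotein lipase, was at 5.72 in the parental cells, at 8.66, 9.75 and 10.13 as the lowest, median and highest Cr line and at 10.04, 10.11 and 9.96 in the control lines. The Cr lines were 14.3-fold above the parental array, the largest fold of the genes above, and did not pass the test against the control lines (limma adjusted p = 0.387). CCND1, cyclin D1, which drives entry into the cell cycle, was at 7.30 in the parental cells, at 9.27, 8.67 and 8.89 in the control lines and at 9.69, 10.08 and 10.38 as the lowest, median and highest Cr line. The Cr lines were 6.77-fold above the parental array and were also above all 3 control lines (difference 1.11 on the log2 scale, limma adjusted p = 0.00693).

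NT5E, a surface enzyme that makes adenosine, was 5.92-fold above its parental level of 8.29, with control lines from 9.70 to 9.87 and Cr lines from 10.45 to 11.43. CD82, a tetraspanin, was 5.72-fold above 7.07, with control lines at 8.36, 8.12 and 7.98 and Cr lines from 9.26 to 9.90. Both were above the control lines too (limma adjusted p = 0.00607 and 0.00104). TNFRSF11B, the decoy receptor osteoprotegerin, was 7.20-fold above 5.62, with Cr lines from 7.72 to 9.51 and control lines from 6.70 to 7.59, and missed the threshold against the control lines (limma adjusted p = 0.0619). TGM2, which crosslinks proteins, was 6.68-fold above 6.29, with control lines from 7.31 to 7.66 (limma adjusted p = 0.0494). MICAL2, an actin-oxidizing enzyme, was 3.63-fold above 9.32. LIF, a cytokine of the interleukin-6 family, was at 6.07 in the parental cells, at 7.41 to 8.24 in the Cr lines and at 8.67 to 8.72 in the control lines, so that the Cr lines were 3.60-fold above the parental array but below the control lines (limma adjusted p = 0.0446).

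Several genes were below the parental array in both sets, some within narrow ranges. TMPRSS15, the intestinal protease enteropeptidase, was at 6.96 in the parental cells, at 4.69 to 4.77 in the 6 Cr lines and at 4.74, 4.68 and 4.68 in the control lines. The Cr mean was 4.71-fold below the parental array. PIEZO2, a mechanically gated channel, was at 7.41 in the parental cells, at 5.07 to 5.28 in the Cr lines and at 5.06 to 5.30 in the control lines. In both genes the 9 lines lay together near the background and the parental array stood alone, so these differences rest on that 1 array. PAMR1, a secreted protein with a protease-like domain, was 5.23-fold below 8.05, and GPNMB, a membrane glycoprotein of melanocytes and macrophages, was 4.08-fold below 7.80. RASGRF1, an exchange factor for Ras, was 3.68-fold below 7.65, and BMP4, a bone morphogenetic protein, 3.42-fold below 8.41. None of these 6 genes passed the test between the Cr and control lines (limma adjusted p from 0.0767 for RASGRF1 to 0.923 for PIEZO2). PIEZO2 and RASGRF1 have several clusters, and the mean of all of them gave -1.70 and -0.96 on the log2 scale in place of -2.23 and -1.88.

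A further set of genes was near the parental level in the Cr lines and away from it in the control lines. IGFL1, an insulin growth factor-like protein, was at 5.61 in the parental cells, at 5.60 to 5.86 in the Cr lines and at 8.93, 8.40 and 7.71 in the control lines. JUNB, a subunit of the AP-1 transcription factor, was at 7.25 in the parental cells, at 7.12 to 7.74 in the Cr lines and at 9.18, 9.04 and 8.91 in the control lines. HBEGF, a ligand of the EGF receptor, was at 9.79 in the parental cells, at 9.47 to 10.02 in the Cr lines and at 11.40, 11.37 and 11.46 in the control lines. SERPINA3, a protease inhibitor, LTBP2, an extracellular matrix protein, and PGF, an angiogenic factor, were within 0.5 of the parental level in all 6 Cr lines. They were higher in all 3 control lines, by a mean of 1.70, 1.65 and 1.44 on the log2 scale. All 6 genes were lower in the Cr than in the control lines (limma adjusted p from 7.98e-05 for HBEGF to 0.00347 for SERPINA3). The genes of this set were chosen for lying near the parental level in the Cr lines and for passing that test, so both are a description.

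DSC3 and DSC2, desmosomal cadherins, were higher than the parental cells in the Cr lines and lower in the control lines. DSC3 was at 8.96 in the parental cells, at 9.69, 10.18 and 10.47 as the lowest, median and highest Cr line and at 4.85, 4.90 and 4.96 in the control lines. The Cr lines were 2.31-fold above the parental cells on average and 1.66-fold in the nearest line, so that DSC3 was not called. DSC2 was 2.11-fold above 7.30, with the nearest line at 1.64-fold and control lines at 5.40, 5.70 and 5.58. DSG2, another desmosomal cadherin, was at 8.01 in the parental cells and at 7.82 to 8.45 in the Cr lines. PERP, a membrane protein of desmosomes, was at 8.23 in the parental cells and from 7.59 to 9.17 in the Cr lines, which therefore lay on both sides of the parental level, with control lines at 6.16, 5.93 and 6.36. Of 15 measured genes of the desmosome list none was called on either side, and 3 were above and 3 below the parental array in all 6 Cr lines.

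**Figure D3:**
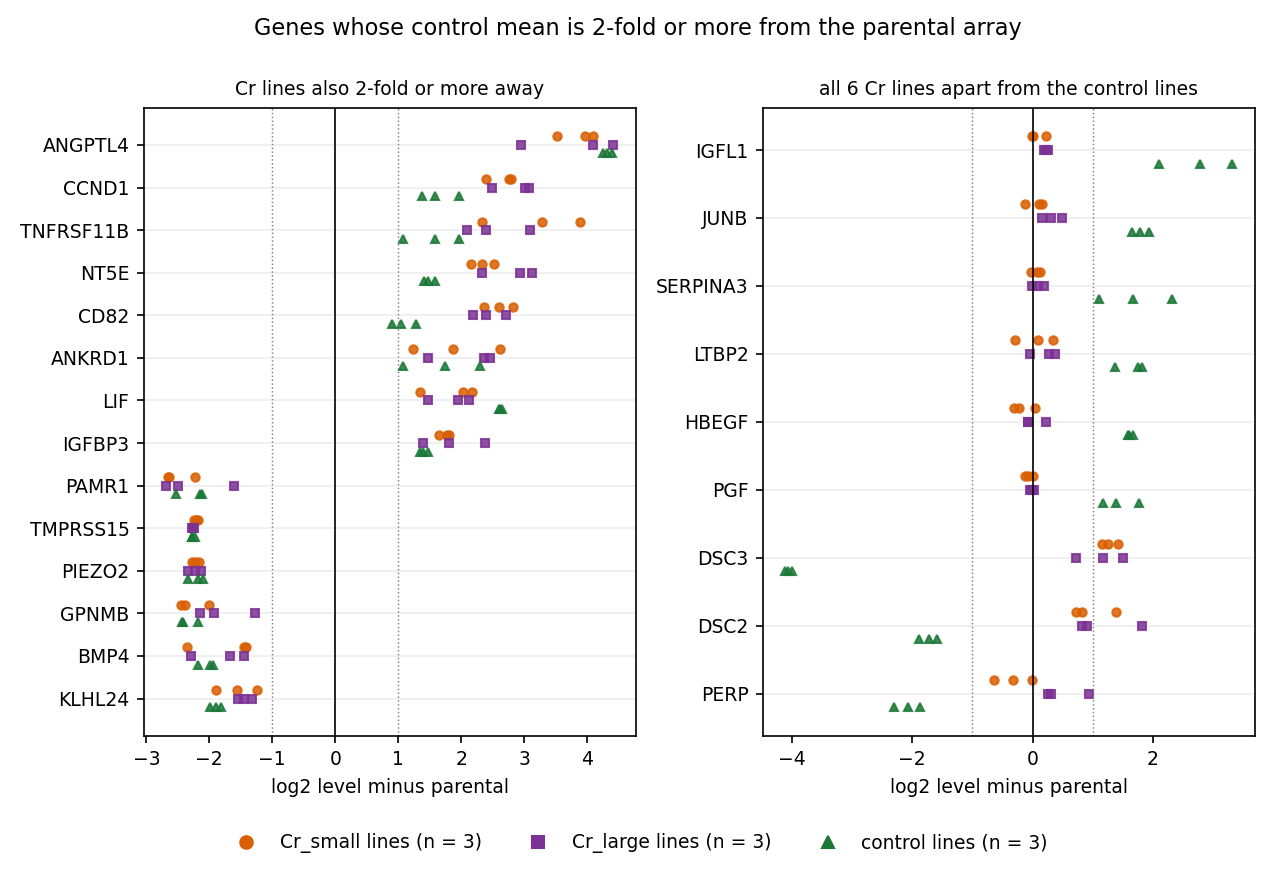
Log2 level minus that of the parental array, 1 point per line, for genes whose control lines were on average 2-fold or more away (circles Cr_small, squares Cr_large, triangles control, dotted lines at 2-fold). On the left the Cr lines lie on the same side as the control lines, from 14.3-fold above for ANGPTL4 to 5.23-fold below for PAMR1, and on the right they lie apart from them, as for IGFL1 at 5.60 to 5.86 against 7.71 to 8.93.

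Of 25 gene lists 18 had a called member. The lists were chosen with earlier results of these data known, so their counts and shares are a description and not a test. Medians and counts of the lists are read against those of all genes. Of all genes 24.9% were above and 21.3% below the parental array by any amount in all 6 Cr lines. The list of ERK feedback and output genes, which are induced by the mitogen-activated kinase ERK and in part restrain it, had 34 measured members. Of these 4 were called above (ETV5, EPHA2, CCND1 and LIF, 11.8%) and none below, where 0.31% of all genes were called above and 0.675% below, and 21 were above the parental array in all 6 lines and 1 was below. ETV5, an ETS transcription factor, was at 6.31 in the parental cells, at 7.77 to 8.78 in the Cr lines and at 7.58, 7.22 and 7.20 in the control lines. EPHA2, an ephrin receptor, was 2.80-fold above 8.17, with control lines at 9.66, 9.33 and 9.62. DUSP6 and SPRY4, which are feedback inhibitors of the pathway, were 1.29 and 1.65 above the parental array on the log2 scale, and 1.30 and 1.72 above it in the control lines. The list's median difference was 0.53, and 0.59 in the control lines. Cr_large 3 had the lowest median, 0.24, and the other 5 Cr lines were at 0.45 to 0.69.

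The list of FOXO targets and genes of cell cycle exit leaned the other way. Of 36 measured members 5 were called below (13.9%, where 0.675% of all genes were) and none above. In all 6 lines 25 were below the parental array. The median difference was -0.39, from -0.49 to -0.39 by line, and -0.14 in the control lines. CDKN1B, the cyclin-dependent kinase inhibitor p27, was at 9.55 in the parental cells, at 7.79, 7.96 and 8.11 as the lowest, median and highest Cr line and at 8.34, 8.02 and 8.35 in the control lines, 3.01-fold below. CCNG2, an atypical cyclin found in resting cells, was 2.82-fold below 8.70, KLHL24, a ubiquitin ligase adaptor, 2.84-fold below 7.81, GABARAPL1, an autophagy protein, 2.79-fold below 7.83, and PNRC1, a nuclear receptor coregulator, 2.48-fold below 9.78. None of the 5 passed the test between the Cr and control lines (limma adjusted p from 0.0501 for CCNG2 to 0.799 for GABARAPL1). Of the whole list 10 genes were lower and 2 higher in the Cr than in the control lines (limma, where 7.57% of all genes were lower and 7.0% higher). FBXO32, a ubiquitin ligase subunit, differed from the parental array by -1.42 in the Cr lines and 0.37 in the control lines, and was not called (limma adjusted p = 0.00067 between them). The proliferation list had 43 measured members, of which CCND1 alone was called (above, 2.33%, where 0.31% of all genes were). In all 6 lines 19 were below the parental array and 9 above. The list's median difference was -0.12, and -0.25 in the control lines, and 9 members were higher and 6 lower in the Cr than in the control lines (limma). MKI67, the Ki-67 antigen, differed from the parental array by -0.81 and CDK1, the mitotic kinase, by -0.80, and their lines ranged from -1.26 to -0.32 and from -1.16 to -0.46.

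Sterol synthesis genes, which are controlled together by SREBP factors, were lower than in the parental cells. Of 27 measured members 3 were called below (11.1%, where 0.675% of all genes were) and none above. In all 6 lines 18 were below the parental array and 2 above. HMGCS1, the synthase before the rate-limiting step of cholesterol synthesis, was at 10.97 in the parental cells, at 9.13 to 9.84 in the Cr lines and at 9.52, 9.82 and 9.83 in the control lines, 2.95-fold below. MSMO1, a later enzyme of the pathway, was 2.96-fold below 10.53, with Cr lines from 8.51 to 9.28 and control lines from 9.89 to 10.17. INSIG1, which retains the SREBP complex in the endoplasmic reticulum, was 3.00-fold below 9.36, with Cr lines from 7.56 to 8.06 and control lines from 8.82 to 9.18. MSMO1 and INSIG1 were lower in the Cr than in the control lines (limma adjusted p = 0.00354 and 0.00134), and HMGCS1 missed the threshold (0.186). Of the whole list 5 genes were higher (SCD, ACACA, SREBF1, ACLY and MVD) and 5 lower in the Cr than in the control lines (limma). Of all genes 7.0% were higher and 7.57% lower. SCD, a fatty acid desaturase, was 1.14 higher than in the control lines on the log2 scale (limma adjusted p = 0.0156). The median of the list was -0.55, from -0.77 to -0.18 by line, and -0.60 in the control lines. The line nearest to the parental cells was Cr_large 3. The sterol element TCACNCCAC, searched on both strands from 250 bases before to 50 after the RefSeq gene starts, was in 1 of 24 promoters of the list and in 1.15% of 27305 promoters.

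Metallothioneins, small cysteine-rich proteins that bind zinc and other metals and are induced by the zinc sensor MTF1, were not called in the Cr lines. Of 19 measured members of the metallothionein and zinc list none was called, 12 were above the parental array in all 6 lines and 2 were below. The list's median difference was 0.39, from 0.19 to 0.47 by Cr line, and from 0.05 to 0.31 by control line. MT1X was at 9.01 in the parental cells, at 9.79, 10.59 and 10.78 as the lowest, median and highest Cr line and at 10.75, 11.28 and 10.56 in the control lines. MT2A was at 11.97 in the parental cells, at 12.79 to 13.15 in the Cr lines and at 13.00, 13.07 and 12.87 in the control lines, 2.03-fold above. The zinc exporter SLC30A1 was 2.09-fold above 7.79 and MT1G 1.90-fold above 8.87. None of the 19 passed limma between the Cr and control lines in either direction. Because metallothionein genes are alike in sequence, probes may be shared among them. The 160 bases before the RefSeq starts of the 2 members are shown because the family is known for metal response elements, and matches to TGCGCNC or TGCACNC on either strand are in capitals (GRCh38.p14, plus strand, chr16:56608424-56608583 for MT2A and chr16:56682310-56682469 for MT1X).

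MT2A: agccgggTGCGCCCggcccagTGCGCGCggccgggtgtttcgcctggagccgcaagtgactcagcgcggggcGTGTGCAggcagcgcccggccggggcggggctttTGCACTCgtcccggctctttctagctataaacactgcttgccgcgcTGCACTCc

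MT1X: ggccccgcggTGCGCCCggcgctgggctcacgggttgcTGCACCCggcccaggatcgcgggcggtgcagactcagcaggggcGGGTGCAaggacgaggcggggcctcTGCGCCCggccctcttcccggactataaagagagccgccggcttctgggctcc

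MT2A has 5 such matches in the window and MT1X has 4. Either motif was in 4 of 4 metallothionein promoters found in the table and in 29.3% of 27305 promoters.

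Of 28 YAP and TEAD targets, the genes of the Hippo pathway's coactivator, 4 were called above (14.3%) and 1 below (3.57%). Over all genes the shares were 0.31% above and 0.675% below. ANKRD1, a nuclear ankyrin-repeat protein, was 2.00 on the log2 scale above 9.43, and IGFBP3, a binding protein of insulin-like growth factors, was 3.49-fold above 10.30, with control lines from 10.50 to 11.73 and from 11.65 to 11.78. The list's median was 0.29, and 0.33 in the control lines. Of 35 TGF-beta genes 2 were called above (NOX4 and CHRDL1, 5.71%) and 2 below (TGFB2 and BMP4, 5.71%). In all 6 lines 17 were below the parental array and 3 above. TGFB2, a TGF-beta ligand, was 3.15-fold below 11.31, with Cr lines from 8.65 to 10.22. TGFBR2, the type II receptor, was at 9.36 in the parental cells, at 8.29 to 8.87 in the Cr lines and at 10.39, 10.15 and 10.41 in the control lines. PMEPA1, a TGF-beta target that restrains the pathway, was at 6.97, at 6.17 to 6.95 and at 9.21, 8.93 and 9.32. The median of the TGF-beta list was -0.21 in the Cr lines and 0.14 in the control lines, and 16 members were lower and 3 higher in the Cr than in the control lines (limma, where 7.57% of all genes were lower and 7.0% higher).

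Of 33 hypoxia and angiogenic factors ANGPTL4 and ADM were called above (6.06%, where 0.31% of all genes were) and none below. The list's median difference was 0.17 in the Cr lines and 0.24 in the control lines. ADM, the vasodilator peptide adrenomedullin, was at 8.94 in the parental cells, at 9.61, 9.69 and 9.41 in the control lines and at 10.64, 11.07 and 11.75 as the lowest, median and highest Cr line, 4.62-fold above. Of 25 genes of retinoid and lipid handling 5 were called below and none above. When a gene's clusters were averaged, 4 were called. DHRS3, a retinal reductase, was at 7.14 in the parental cells, at 5.43 to 5.62 in the Cr lines and at 5.61 to 5.71 in the control lines. STARD5, a sterol transfer protein, was 3.55-fold below 8.57, ABHD4, a lipase of phospholipids, 3.31-fold below 9.40, and PLD1, a phospholipase, 2.88-fold below 8.04. Of 7 measured pregnancy-specific glycoproteins PSG2 was called above (14.3%, where 0.31% of all genes were). All 7 were above the parental array in all 6 lines, with a median of 1.61 (0.68 to 2.42 by line) and of -0.06 in the control lines. PSG3 was 5.12-fold above 5.55, PSG1 3.22-fold above 5.85 and PSG4 3.05-fold above 6.78, and their nearest lines were 1.60-fold, 1.10-fold and 1.26-fold above. These genes are near-identical copies, and their probes may not tell them apart. No member was called in the lists of antioxidant response (31 measured), DNA repair (39), tight junctions (25), cadherins and catenins (21), gap junctions (11), desmosomes and metallothioneins. HMOX1, heme oxygenase, had the largest difference of the antioxidant list, 1.32 with lines from 0.75 to 1.56, and 1.30 in the control lines.

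**Figure D4:**
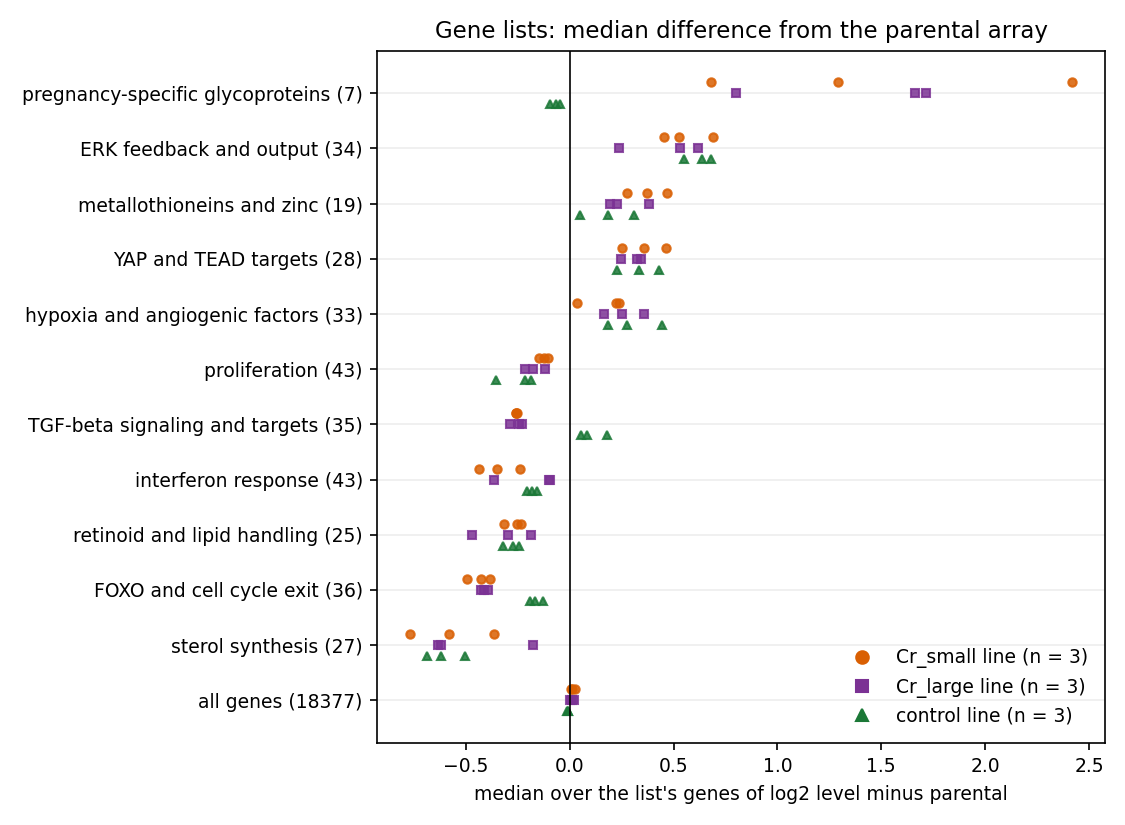
Median over the genes of each list of the log2 level minus that of the parental array, 1 point per line (circles Cr_small, squares Cr_large, triangles control), with the number of measured genes in parentheses. The FOXO list lies from -0.49 to -0.39 in the Cr lines, and the sterol list from -0.77 to -0.18, while the medians of all 18377 genes are near 0.

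By chromosome, genes with a mean level over 7 were taken, 7783 in all, and the median difference from the parental array was computed for each line. Among the autosomes and the X chromosome, chromosome 15 stood lowest, with a median of -0.39 over 233 genes, from -0.40 to -0.35 by Cr line, and from 0.01 to 0.05 in the control lines. Of these genes 71.2% were below the parental array in all 6 Cr lines, where the share over all chromosomes was 26.8%. Of the 574 measured genes of the chromosome 18 were called below, 3.14% where 0.675% of all genes were. B2M, the light chain of MHC class I, was at 11.67 in the parental cells, at 10.07, 10.17 and 10.40 as the lowest, median and highest Cr line and at 11.13, 11.79 and 11.33 in the control lines, 2.77-fold below. IDH2, the mitochondrial isocitrate dehydrogenase, was 3.87-fold below 9.31. SMAD3, the TGF-beta signal transducer, was 2.24-fold below 9.68 and was not called, since Cr_large 2 was 1.99-fold below. SNORD116-15 and SNORD116-14, small nucleolar RNAs of an imprinted cluster on the same chromosome, were 16.5-fold and 14.9-fold below 9.05 and 8.37. Of 20 SNORD116 genes with a cluster 4 were called, and the other 16 were at 4.41 to 5.28 already in the parental cells. These RNAs are near copies of each other, and the array was made for longer transcripts.

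Other chromosomes differed between the Cr lines. The median of chromosome 18 over 117 genes was 0.31 in Cr_small 1, 0.17 in Cr_small 2, 0.01 in Cr_small 3, -0.37 in Cr_large 1, 0.29 in Cr_large 2 and 0.04 in Cr_large 3. That of chromosome 3 was 0.18, -0.19 and -0.25 in Cr_small 1 to 3 and -0.06, -0.15 and 0.04 in Cr_large 1 to 3. Chromosome 14 was at 0.05, -0.33 and 0.04 in Cr_small 1 to 3 and at 0.06, -0.18 and -0.23 in Cr_large 1 to 3. Control lines stayed between -0.07 and 0.05 on these 3 chromosomes. Chromosome 4 was at -0.17 to -0.05 in the Cr lines and at 0.26 to 0.28 in the control lines, and the X chromosome at 0.04 to 0.10 and 0.40 to 0.46. On these last 2 the control lines were the farther from the parental cells. With a level over 8, or with each array centred on its median, the median of chromosome 15 was -0.41 and -0.37. A lower median for a chromosome and any change in DNA copies were not set against each other, since no DNA was measured.

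**Figure D5:**
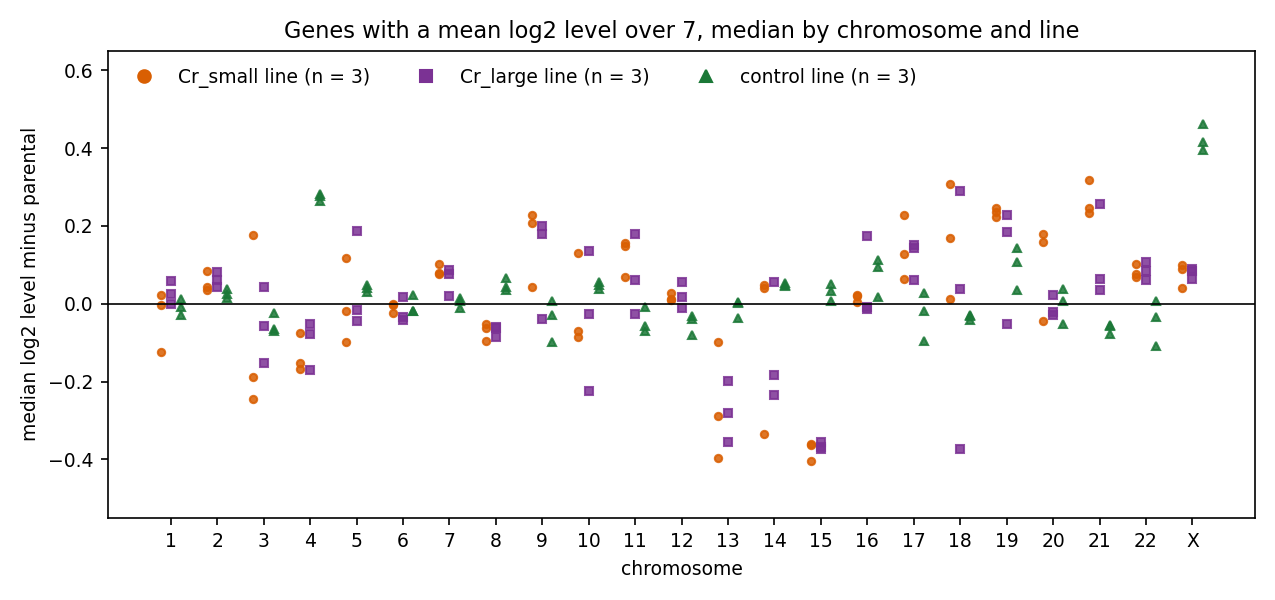
Median log2 level minus that of the parental array over genes with a mean level over 7, by chromosome, 1 point per line (circles Cr_small, squares Cr_large, triangles control). Chromosome 15 is at -0.40 to -0.35 in the Cr lines and 0.01 to 0.05 in the control lines, and chromosome 18 spreads from -0.37 to 0.31 over the Cr lines.

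Chromosome 13 had a median of -0.27 over 140 genes, from -0.40 to -0.10 by Cr line, and from -0.04 to 0.00 in the control lines. MIR15A, a microRNA gene within the host transcript DLEU2, was at 7.83 in the parental cells, at 5.98, 6.32 and 6.68 as the lowest, median and highest Cr line and at 6.92, 7.89 and 7.04 in the control lines, 2.87-fold below the parental array. The Cr lines did not overlap the control lines (limma adjusted p = 0.0332), and control 1 and control 3 lay below the parental level too. The array measures RNA that spans the hairpin and not the mature microRNA. DLEU2 was at 9.21 in the parental cells and at 8.57 to 8.98 in the Cr lines, 1.41-fold below, and MIR16-1, the neighbouring hairpin, was at 5.10 in the parental cells and at 4.90 to 5.05 in the Cr lines. The mature sequences are shown because the 5′ arms of both hairpins have 1 seed in common (bases 2 to 8, in capitals, from RefSeq, GRCh38.p14, minus strand of chromosome 13).

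hsa-miR-15a-5p: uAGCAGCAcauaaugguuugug

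hsa-miR-16-5p: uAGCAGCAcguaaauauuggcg

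The first lies at chr13:50049167-50049188 and the second at chr13:50049027-50049048.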

How the data were processed

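Human Gene 1.0 ST arrays (Affymetrix) were used for RNA of 10 BEAS-2B samples, 1 array each, and precision is limited by that number. The deposited values are linear intensities; the authors ran RMA16 (GeneSpring v11: background correction, quantile normalization and summarization per transcript cluster), which adds a constant of 16. Log2 of the deposited intensities was taken here. Of 28869 clusters 19310 had 1 gene symbol, 1752 several and 7807 none here, and a gene with several clusters was taken at the one with the highest mean. Symbols and chromosomes follow RefSeq (GRCh38.p14). Differences from the parental array were judged by the fold in each of the 6 Cr lines. Cr and control lines were compared with limma 3.58.1 (R 4.3.3) as group means over 4 groups (6 residual degrees of freedom), adjusted by Benjamini-Hochberg, with 0.05 as the threshold. Its p-values measure the spread between lines, each from 1 colony, and not between exposures. Distances and counts were compared by exact permutation tests (scipy 1.17.1), whose p-values likewise concern lines and not exposures. Both tests take the lines as independent, and whether the Cr lines arose independently of each other was not tested. Figures were drawn with matplotlib 3.10.9. Both steps were tested on simulated data, for limma by the comparison of the Cr lines with the parental array and not with the control lines.

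The members, lists and alternatives were chosen with earlier results of these data known. The genes named are the 15 farthest on each side by the nearest Cr line, 10 on each side whose control lines lay within 0.3 of the parental level, 10 on each side whose control lines were also past 2-fold, 10 at the parental level (within 0.5) in the Cr lines that differed from the control lines, 10 with the largest SD, and up to 4 of each list. A selection of these is given, and certain others are not reported here. FBXO32, CDK1, MIR16-1, DLEU2, SMAD3, IDH2, EPCAM, PTPRC, EYA3, DSG2, SCD and the genes of the list of ribosome biogenesis were named after their values were seen. Alternatives were other folds, the mean of the lines, limma with the parental array in the fit, repeated quantile normalization, median centring, subtracting 16, filters on clusters, each line left out, the replicate block and the methods' t-test. Whether equal line numbers pair the lines was checked: residuals of same-numbered lines correlated from -0.145 to 0.0984 in 9 pairs, and lines were not taken as paired.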

Additional observations from a re-analysis of the deposited data

Results flagged for a closer look

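Cr_large 3 stood apart from the other 5 Cr lines in its distance from the parental array (54.3 against 61.9 to 64.9, a gap of 0.716 of the range) and in its number of clusters below (289 against 401 to 462, a gap of 0.647 of the range). Among single genes it was the highest line for STARD5 (gap 0.764 of the range) and the lowest for DUSP6 (0.632). Cr_large 1 was the lowest line for SMAD3 (0.685) and Cr_small 3 the highest for FBXO32 (0.72). These 6 were found among 111 measures tested (5.41%), and chance flags about 1 in 20. Their causes were not tested.

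Among the genes examined here, several had all Cr lines on one side of the parental array and all control lines on the other, and passed limma between them. Other genes may share this pattern. Of the called genes the difference between Cr and control lines on the log2 scale was 3.99 for CHRDL1, 2.86 for STK26, 2.66 for LYPD6B, 2.40 for ELOVL7, 2.18 for NOX4, 2.17 for ZNF711 and -1.87 for MEIS1. Of the genes that were not called it was 5.26 for DSC3, 2.81 for DSC2, 2.26 for PSG1, 0.82 for KRT18, 0.75 for KRT8, -1.78 for TGFBR2, -1.79 for FBXO32 and -2.55 for PMEPA1. The control lines also differed from the Cr lines in their distance from the parental array and in the number of clusters at least 2-fold away (exact permutation p = 0.0238 for each).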

How the results depend on the processing

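The counts of clusters past the fold in all 6 Cr lines depended on the rule. At 1.5-fold 309 were above and 480 below, at 5-fold 3 and 16, by the mean of the 6 lines 197 and 336, by limma with the parental array given the spread of the other groups 126 and 230, and with the Cr_small lines alone 114 above. Leaving out 1 Cr line gave 64 to 95 above and 159 to 182 below, with 95 above without Cr_large 3. Repeated normalization, centring, subtracting 16, the filters and the Cr_large lines alone kept both counts within 1.5 times (58 to 93 above, 129 to 208 below). Between Cr and control lines 3190 clusters were called by limma, 6629 by the methods' t-test without adjustment and 2255 with it, and 1729 to 3163 with 1 line left out. The t-test without adjustment, leaving out control 1 (1827) and leaving out control 3 (1729) moved the count by over 1.5 times. With the replicate block 2783 were called (1295 higher and 1488 lower). No paired analysis was possible because the parental array has no line number, as far as the comparison with it goes. The difference in distance was 10.8 and ranged from 9.93 to 12.2 with 1 line left out. The difference in the number of clusters was 280.7 and ranged from 254 to 321. With 16 subtracted it was 368 (exact permutation p = 0.0476). The lowest Cr line, at 689, then lay below the highest control line, at 705. Without any 1 control line the exact permutation p was 0.0714 for both the distance and the number, the smallest that 6 against 2 can give. Of 107 genes none changed direction. Subtracting 16 moved 26 by more than the SD over lines, SNORD116-14 the most (1.76 on the log2 scale), and averaging a gene's clusters moved AK4, ALDH1A3, PIEZO2 and RASGRF1. Dim genes have smaller folds than their RNA would give, because of the added constant.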

Other observations

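Genes of ribosome biogenesis, which process ribosomal RNA and assemble the subunits in the nucleolus, were higher in the Cr lines than in the parental cells. The list was written after the called genes were seen, so it has no test and is a description. Of 102 measured genes 13 were called above (12.7%, where 0.31% of all genes were) and none below, and 89 were above the parental array in all 6 lines (87.3%, where 24.9% of all genes were) and 3 below. The median difference was 0.64 on the log2 scale, from 0.58 to 0.69 by Cr line, and 0.38 in the control lines, from 0.38 to 0.41. RRP12, an export factor of pre-ribosomes, was 2.71-fold above the parental array, with control lines 0.47 above it on the log2 scale. NAT10, which acetylates ribosomal RNA, was 1.28 above on the log2 scale, URB1, a nucleolar assembly factor, 1.30, and PES1, of the complex that matures the large subunit, 1.09 with an SD of 0.04 over the 6 lines. Between the Cr and control lines, 39 of the 102 genes were higher in the Cr lines and 6 lower (limma adjusted p under 0.05, where 7.0% of all genes were higher and 7.57% lower). Both sets are measured from the same parental array.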
